A study of Homo sapiens with 4 samples.

Results

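The 9 genes described here are PKIB, its relatives PKIA and PKIG, which encode inhibitors of the cyclic AMP-dependent protein kinase (PKA), and the genes of the PKA subunits PRKACA, PRKACB, PRKAR1A, PRKAR1B, PRKAR2A and PRKAR2B. They are 9 of 60483 gene identifiers in the count files, and all 9 had enough reads to be tested. PKIB was chosen because its RNA was higher in SLC35F2 knockout (KO) cells than in control cells. The others were chosen by family, with earlier results of these data known. The samples came from H9 (WA09), a long-established line of human embryonic stem cells, with 2 libraries of genotype SLC35F2 KO and 2 of genotype control. No treatment is given for either group, and the labels name neither the edit nor the number of clones. SLC35F2 encodes a solute carrier of the plasma membrane. Nothing in the labels says that the 2 libraries of a group are separate cultures, so the spread behind each p-value may be technical.

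PKA is the main kinase that answers to cyclic AMP. At rest, a dimer of regulatory subunits holds catalytic subunits inactive, and cyclic AMP binding to the regulatory subunits releases them to phosphorylate proteins such as the transcription factor CREB. The PKI proteins are small inhibitors that fit the active site as a pseudosubstrate and also carry a nuclear export signal, so that they block free catalytic subunits and take them out of the nucleus. In embryos PKA also restrains Hedgehog signalling.

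PKIB (ENSG00000135549.13) lies on the plus strand of chromosome 6, 122471917 to 122726373 (GRCh38), and GENCODE 29 gives it 12 transcripts with 10 start sites. RefSeq (GRCh38.p14) gives 3 start windows for it. The 250 bases before each of these starts are shown because PKIB is the gene with the large difference, while gene counts cannot tell which start was used. Capitals mark the core of the cyclic AMP response element, TGACG on either strand (CGTCA when read on the other strand). The windows are chr6:122471671-122471920, chr6:122610155-122610404 and chr6:122652479-122652728, all on the plus strand.
PKIB start 1: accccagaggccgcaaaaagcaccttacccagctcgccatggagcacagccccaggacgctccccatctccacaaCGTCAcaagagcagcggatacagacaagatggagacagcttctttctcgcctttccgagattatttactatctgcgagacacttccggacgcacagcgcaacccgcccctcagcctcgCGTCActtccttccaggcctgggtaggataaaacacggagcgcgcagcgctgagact
PKIB start 2: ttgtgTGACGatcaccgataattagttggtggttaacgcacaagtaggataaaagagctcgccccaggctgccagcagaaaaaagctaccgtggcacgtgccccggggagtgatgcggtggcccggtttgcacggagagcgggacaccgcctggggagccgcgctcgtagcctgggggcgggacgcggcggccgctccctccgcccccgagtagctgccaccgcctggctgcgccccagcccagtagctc
PKIB start 3: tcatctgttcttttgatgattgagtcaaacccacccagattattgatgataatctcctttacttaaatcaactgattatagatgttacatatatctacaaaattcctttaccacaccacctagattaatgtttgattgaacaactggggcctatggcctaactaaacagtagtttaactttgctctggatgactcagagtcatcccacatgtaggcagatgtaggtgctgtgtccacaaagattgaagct

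The core occurred 2 times before the first start, 1 time before the second and 0 times before the third. The whole element TGACGTCA occurred before none of the 3. Of 35116 RefSeq windows of the same length, 21.2% held the core, which also counts those inside a whole element, and 1.65% held the whole element on both strands. For 8 of the 9 genes windows were found, PKIA having no entry, and 7 of 25 windows held the core and 1, before PRKAR1A, the whole element. A match describes letters and does not show that a factor binds there.

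The libraries held 27824693 to 37978705 reads assigned to genes. The targeted gene SLC35F2 had 12.1 CPM in KO 1 and 9.65 CPM in KO 2, against 41.1 CPM in control 1 and 27.1 CPM in control 2 (CPM, a gene's reads scaled to the depth of the library after TMM), with a log2 fold change of -1.65 and an edgeR adjusted p = 0.58. Reads outside annotated features made up 7.41% and 4.59% of all counted reads in KO, against 8.40% and 10.8% in control. Of 10 pluripotency markers all had reads, with a summed level of 7346 and 4802 CPM in KO against 6877 and 6444 CPM in control. Of the 10, 1 (10%, LIN28A) was higher and 2 (20%, NANOG and L1TD1) lower in both KO libraries, against 15.8% and 16.3% of all genes tested. NANOG had 46.2 and 19.1 CPM in KO against 61.2 and 64.7 CPM in control. None of the 10 was called, where edgeR called 0.0263% of all genes. The 12 markers of mesoderm and endoderm, all with reads, summed to 8.33 and 7.17 CPM in KO against 11.4 and 17.4 CPM in control. Of the 5 marker sums only this one did not overlap between the groups. Of its 6 genes with enough reads to be tested, 0 were higher and 2 (33.3%) lower in both KO libraries, against 15.8% and 16.3% of all genes. Fibroblast markers (12 of 12 with reads) summed to 599 and 1149 CPM in KO against 587 and 938 CPM in control. COL1A1, COL1A2 and THY1 made up most of this sum in each library, while DCN, LUM and FAP had at most 5 reads in any. Of the 9 tested fibroblast markers, 0 were higher and 2 (22.2%, PDGFRA and S100A4) lower in both KO libraries, against the same shares of all genes. Trophoblast and amnion markers (11 of 11) summed to 21.0 and 27.9 CPM in KO against 23.7 and 45.2 CPM in control, mostly from KRT7 and GABRP. Of the 7 tested, 1 (14.3%, KRT7) was higher and 2 (28.6%, CDX2 and GATA2) lower in both KO libraries, against the same shares of all genes. CDX2 had 0 and 0 reads in KO against 16 and 11 in control. GATA2 had 3 and 5 reads in KO against 19 and 305 in control, and neither was called. Neuroectoderm and neural crest markers summed to 566 and 938 CPM in KO against 535 and 820 CPM in control, with 10 of 11 read and SOX10 at 0 in all 4 libraries. NES made up most of this sum in each library, so the sums rest on few genes and do not show a cell type. Of the 8 tested neuroectoderm and neural crest markers, 1 (12.5%, SOX1) was higher and 1 (12.5%, DCX) lower in both KO libraries. The part of these differences in the results was not tested.

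PKIB RNA was higher in both KO libraries. It had 47.0 CPM in KO 1 and 44.4 CPM in KO 2, against 6.10 CPM in control 1 and 5.57 CPM in control 2, from 1293 and 1519 reads against 230 and 198. The groups lie far apart and the libraries within each group lie close together. The means were 45.7 ± 1.84 CPM in KO and 5.83 ± 0.369 CPM in control (SD, n = 2 each), a 7.83-fold difference (log2 fold change 2.97). PKIB was picked for this difference, so it is given as a description and without a test. Over all 19027 genes tested, 10 had a log2 fold change at least as large, PKIB included, and 9 of these averaged 1 CPM or more. In the 14 other ways of processing the counts, the log2 fold change of PKIB lay between 2.85 and 3.04. When each library was left out in turn it lay between 2.91 and 3.04.

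**Figure D1:**
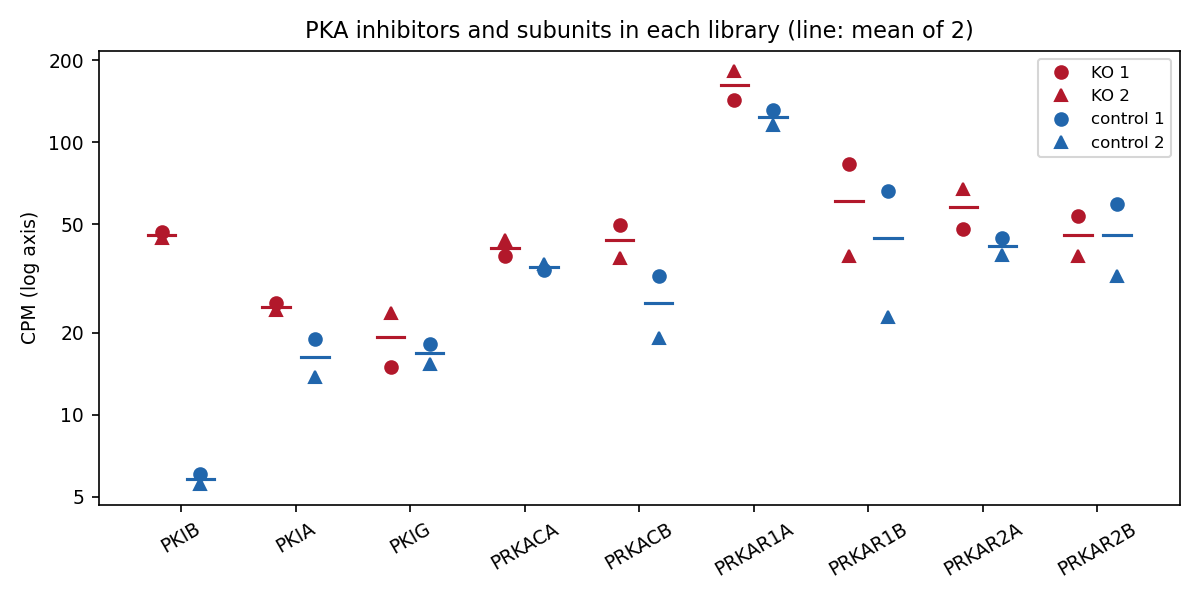
CPM (log axis) of the 9 genes in each library, with KO in red to the left of control in blue, circles for replicate 1, triangles for replicate 2 and a line for the mean of 2. PKIB stands at 47.0 and 44.4 CPM in KO against 6.10 and 5.57 CPM in control, and the other genes differ by far less.

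Of the other 8 genes, 0 were called by edgeR's quasi-likelihood test (Benjamini-Hochberg adjusted p under 0.05 over all genes tested; their adjusted p-values started at 0.997). Over all genes 0.0263% (5 genes) were called in either direction and 0.00526% as higher in KO. At an unadjusted p under 0.05 the test placed 0 of the 8 and 4.06% of all genes. DESeq2 (0.315% of all genes), limma-voom and every other setting also called 0 of the 8, among them the fits without control 1 (0.0197%) and without control 2 (0.015%). Limma-voom, upper-quartile factors, library size only and a mean CPM of at least 1 called 0 of all genes, so their 0 was fixed. With no library left out, the largest share called was 0.399% (replicate number as a block), so 0 of 8 says little about these genes. The log2 fold changes of the 8 ran from 0.0036 to 0.76 with a median of 0.42. The median of all genes tested was 0.029. Of the 8, 5 (PKIA, PRKACA, PRKACB, PRKAR1A and PRKAR2A) lay above both controls in each KO library, 0 lay below and 3 overlapped. Over all genes tested, 15.8% were higher in both KO libraries and 16.3% were lower. With no factor beyond library size the median of all genes moved to -0.097, and 4 of the 8 lay above both controls. The gene lost was PRKACA, with 37.9 and 40.5 CPM in KO against 33.8 and 39.2 CPM in control.

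**Figure D2:**
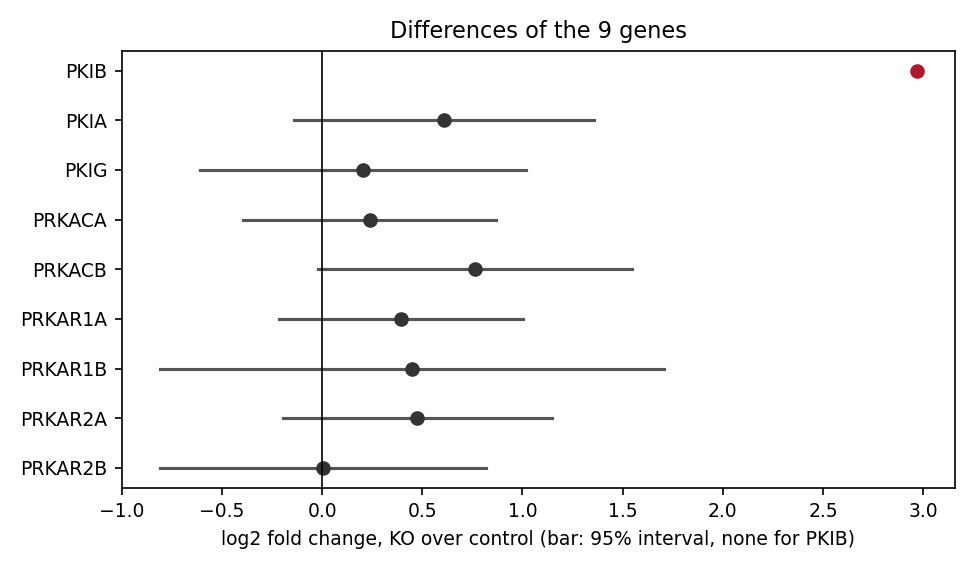
Log2 fold change of KO over control for the 9 genes (points) with the 95% confidence interval of edgeR's fit (bars), given for the 8 genes not picked for their difference. The 8 intervals all include 0 and together span -0.81 to 1.71, while PKIB stands at 2.97.

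Of the other inhibitor genes, PKIA encodes the best studied PKI and is abundant in muscle and brain. PKIA (chromosome 8, 78516139 to 78605267, plus strand) had 25.6 CPM in KO 1 and 24.3 CPM in KO 2, against 19.0 CPM in control 1 and 13.7 CPM in control 2. The groups did not overlap, and the difference did not pass the test (log2 fold change 0.61, 95% interval -0.14 to 1.35, edgeR adjusted p = 0.997). PKIG (chromosome 20, 44531785 to 44624247, plus strand), the broadly expressed form, had 15.0 CPM in KO 1 and 23.7 CPM in KO 2, against 18.3 CPM in control 1 and 15.4 CPM in control 2. KO 1 was the lowest and KO 2 the highest of the 4 libraries, so the groups overlapped (log2 fold change 0.21, interval -0.61 to 1.02). Without KO 2 it turned to -0.16.

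Divided by the length of its merged exons, so that genes can be compared, PKIB was the lowest of the 3 inhibitor genes in both controls and the highest in both KO libraries. Per kilobase of exon, PKIB had 13.7 and 12.9 CPM in KO, against 1.78 and 1.62 CPM in control. PKIA had 6.08 and 5.77 CPM per kilobase in KO against 4.51 and 3.26 in control, and PKIG had 6.02 and 9.50 against 7.31 and 6.17. PKIB made up 53.1% and 45.9% of the summed inhibitor level per kilobase in KO, against 13.1% and 14.7% in control. The summed level was 25.8 and 28.2 CPM per kilobase in KO, against 13.6 and 11.05 in control. Without PKIB the sum was 12.1 and 15.3 in KO against 11.8 and 9.43 in control. All lengths are those of merged GENCODE 29 exons, which are longer than the transcripts a cell uses, so the levels per kilobase are approximate.

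Of the catalytic subunit genes, PRKACA encodes the widespread alpha form and PRKACB the beta form, whose isoforms are many in the nervous system. PRKACA (chromosome 19, 14091688 to 14118084, minus strand) had 38.4 and 43.8 CPM in KO, against 34.0 and 35.8 CPM in control (log2 fold change 0.24, interval -0.40 to 0.87). PRKACB (chromosome 1, 84078062 to 84238498, plus strand) had 49.8 CPM in KO 1 and 37.7 CPM in KO 2, against 32.4 CPM in control 1 and 19.1 CPM in control 2. It was higher in both KO libraries and in replicate 1 of each group. Its log2 fold change of 0.76 was the highest of the 8 genes, with an interval from -0.02 to 1.55 (edgeR adjusted p = 0.997). It was 0.43 without control 2 and 1.20 without control 1, and was called in neither. Per kilobase, PRKACB stood at 1.18 and 0.787 times PRKACA in KO, against 0.870 and 0.487 times in control, so the groups overlapped.

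Of the regulatory subunit genes, PRKAR1A, the ubiquitous type I alpha form and the gene mutated in Carney complex, had the highest level per kilobase of the 9 genes in every library (21.0 and 26.7 CPM per kilobase in KO, against 19.3 and 16.9 in control). PRKAR1A (chromosome 17, 68511780 to 68551319, plus strand) had 143 and 182 CPM in KO, against 132 and 116 CPM in control (log2 fold change 0.40, interval -0.21 to 1.0). PRKAR2A (chromosome 3, 48744597 to 48847846, minus strand), the widespread type II form, had 48 and 67.7 CPM in KO, against 44.7 and 38.6 CPM in control (log2 fold change 0.48, interval -0.20 to 1.15). Both genes were higher in each KO library than in each control, with no call.

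PRKAR1B and PRKAR2B, the beta forms known mainly from brain and, for PRKAR2B, fat, varied more within the groups than between them. PRKAR1B (chromosome 7, 549197 to 727650, minus strand) had 83.2 CPM in KO 1 and 38.5 CPM in KO 2, against 66.1 CPM in control 1 and 22.9 CPM in control 2. PRKAR2B (chromosome 7, 107044649 to 107161811, plus strand) had 53.6 CPM in KO 1 and 38.2 CPM in KO 2, against 59.2 CPM in control 1 and 32.2 CPM in control 2. In both genes, replicate 1 of each group was above replicate 2 of either group. The log2 fold changes were 0.45 (interval -0.81 to 1.71) for PRKAR1B and 0.0036 (interval -0.81 to 0.82) for PRKAR2B. The sign of PRKAR1B turned without KO 1 and without control 2. That of PRKAR2B turned in 6 settings, among them library size only (-0.096).

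The balance between classes was taken as a ratio within each library, which does not depend on how libraries are scaled. Summed per kilobase, the inhibitors stood at 1.89 and 2.22 times the catalytic subunits in KO, against 1.31 and 1.27 times in control. Without PKIB this ratio was 0.887 and 1.20 in KO against 1.14 and 1.09 in control, and the groups overlapped. The regulatory subunits stood at 4.34 and 4.26 times the catalytic subunits in KO, against 5.27 and 4.08 times in control, again with overlap (difference of mean log2 ratios -0.11, two-sided exact permutation p = 1.0). Type I regulatory subunits stood at 2.01 and 1.85 times type II in KO, against 1.67 and 1.66 times in control. This ratio was higher in both KO libraries, by 0.22 on the log2 scale, with a two-sided exact permutation p = 0.333, which is the smallest that 2 against 2 samples allow. RNA ratios are not ratios of proteins.

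**Figure D3:**
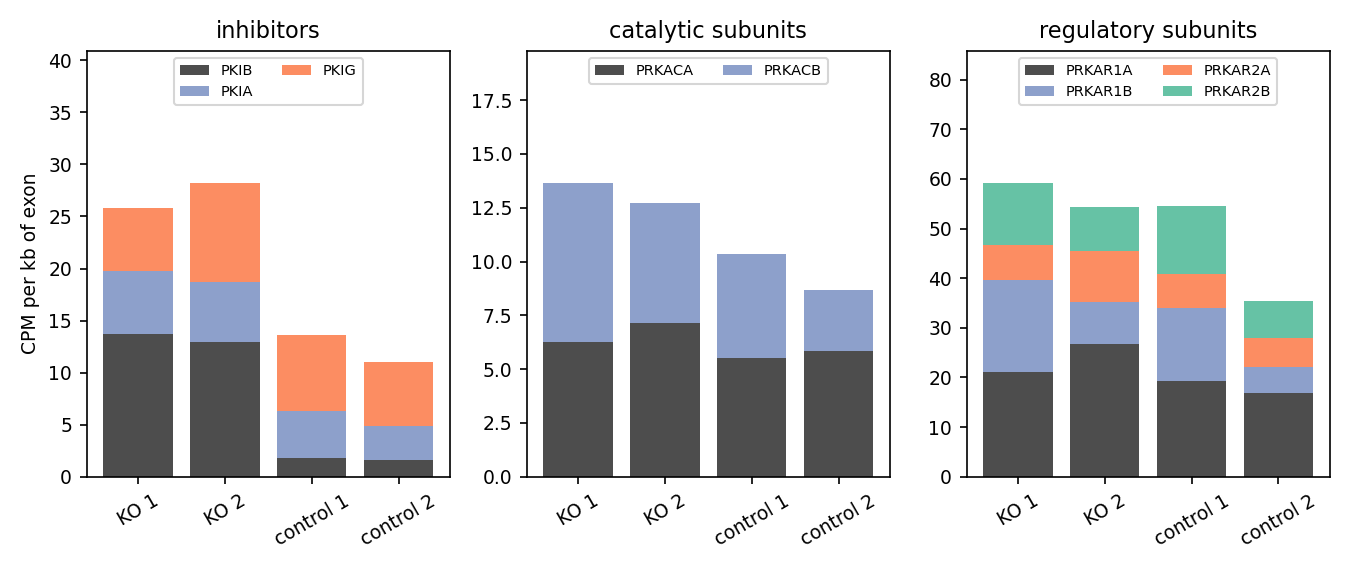
Level per kilobase of merged exons (CPM per kb) of the inhibitor, catalytic and regulatory genes in each library, stacked by gene, each panel on its own scale from 0. The inhibitor sum is 25.8 and 28.2 in KO against 13.6 and 11.05 in control, and the PKIB part accounts for 13.7 and 12.9 of it in KO.

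The annotation has 13 genes that overlap 1 of the 9, of which 5 share exon bases with it, at most 13.2% of its exons. Within PKIB, Z99129.3, a gene to be experimentally checked on the same strand, shares 454 bases or 13.2% of the PKIB exons and had 15 and 11 reads in KO against 2 and 10 in control. AL512283.1, a transcript in a PKIB intron on the same strand, had 9 and 16 reads in KO against 3 and 2 in control. DNAAF5, on the strand opposite to PRKAR1B, shares 383 bases (8.53% of the PRKAR1B exons). ADA, opposite to PKIG, shares 46 bases, and PRKAR2A-AS1 shares 275 bases with PRKAR2A. AC007780.1, on the strand of PRKAR1A, shares 546 bases (8.0% of the PRKAR1A exons) and had 4 and 7 reads in KO against 4 and 3 in control. Besides AL512283.1, the genes that share no exon bases were PKIA-AS1, Z99129.2, AL359504.1, FAM20A, AC147651.1, AC147651.3 and AC006387.1. Reads that fall on such stretches may be split or left out, and the strand setting of the counting is not given in the sources used here.

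Within 1 Mb of PKIB, 6 other protein-coding genes were tested. EdgeR called 0 of them, where it called 0.0263% of all genes, and 0 also had an unadjusted p under 0.05. Of the 6, 0 lay above both controls in each KO library, 2 lay below and 4 overlapped, where 15.8% of all genes lay above and 16.3% below. The tested non-coding genes of this stretch, AL512283.1, Z99129.3 and Z99129.4, each lay above both controls in each KO library. Their log2 fold changes were 2.50 (edgeR unadjusted p = 0.0125), 1.35 and 0.49, at 1.67 CPM or less in every library, and none was called. AL512283.1 and Z99129.3 lie within PKIB on its strand, and Z99129.4 lies 32.7 kb before it. SERINC1, which runs the other way from a start 95 bases before that of PKIB, had 73.0 and 131 CPM in KO against 79.9 and 72.8 CPM in control (log2 fold change 0.42, interval -0.32 to 1.16). HSF2, a heat shock transcription factor gene 38.8 kb before PKIB, had 23.2 and 29.6 CPM in KO against 23.7 and 20.8 CPM in control. FABP7, the brain fatty acid-binding protein gene 53.1 kb after PKIB, had 13.8 and 6.99 CPM in KO against 18.3 and 20.9 CPM in control (log2 fold change -0.92, edgeR adjusted p = 0.997). SMPDL3A (-0.55) and CLVS2 (-0.70) had log2 fold changes below 0. TRDN, the triadin gene, had 0.182 CPM in KO 1 and 9.18 CPM in KO 2 against 0.981 and 2.0 CPM in control, and its log2 fold change was 1.70 with all libraries and -3.0 without KO 2. Without KO 1 both FABP7 (adjusted p = 0.0254) and TRDN (6.58e-05) were called by edgeR, in a fit that called 5.31% of all genes and assumes that the lone KO library varies as the controls do.

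**Figure D4:**
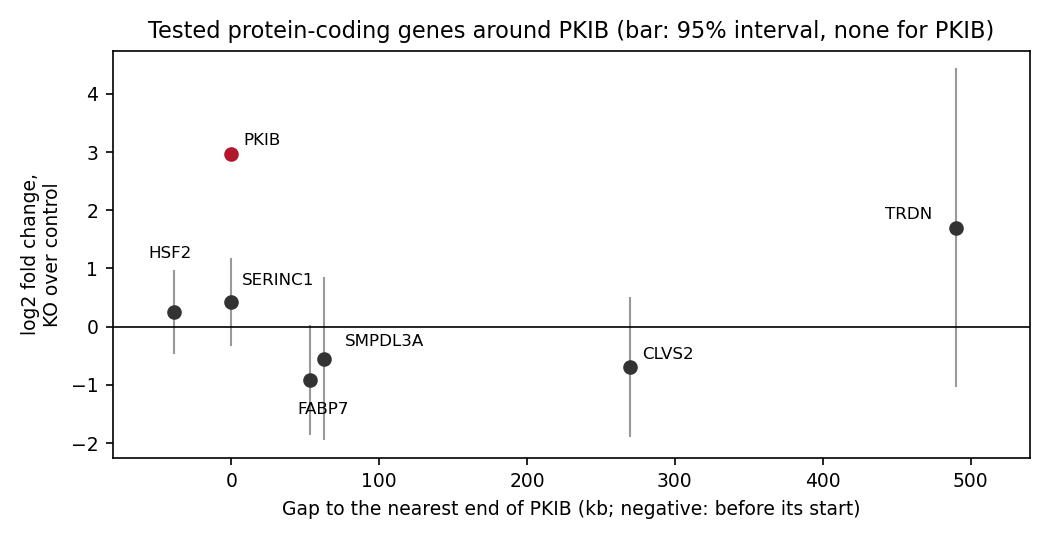
Log2 fold change of KO over control (vertical axis) for PKIB and the 6 tested protein-coding genes within 1 Mb, against the gap to the nearest end of PKIB in kb, with 95% intervals of edgeR's fit except for PKIB. PKIB stands at 2.97, and each neighbour except TRDN (1.70) lies between -0.92 and 0.42.

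Among all tested genes averaging 1 CPM or more, those closest to PKIB in profile were found by the Euclidean distance of log2 values over the 4 libraries, each gene centred on its own mean. The closest was D21S2088E, a long intergenic non-coding RNA on chromosome 21, at a distance of 0.603. It had 16.8 and 25.6 CPM in KO against 3.63 and 2.56 CPM in control. GOLGA2P7, a transcribed pseudogene whose reads may be shared with its relatives, followed at 1.21 with 8.73 and 7.49 CPM in KO against 2.17 and 2.22 CPM in control. ADRA1D (an alpha-1 adrenergic receptor, distance 1.47), HMX2 (a homeobox factor, 1.54) and PCDHB12 (a protocadherin, 1.66) were next, all with fewer reads. Of the other 8 genes, the nearest to PKIB was PRKACB at a distance of 2.14 and the farthest PRKAR2B at 2.88. These genes were picked for their likeness, so no test is given.

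The wider cyclic AMP pathway was read from 10 lists of 114 genes, of which 97 were tested. By edgeR 0 were called, where 0.0263% of all genes were, a share so low that 0 calls say little about the lists. Of the 97, 12 (12.4%) had an unadjusted p under 0.05 where 4.06% of all genes did. DESeq2 (92 genes with an adjusted p) and limma-voom also called 0, as did the fits without control 1 or control 2, while the fit with a replicate block called 3 (0.399% of all genes), that without KO 2 called 3 (0.927%) and that without KO 1 called 9 (5.31%). Limma-voom called 0 of all genes, so its 0 was fixed. Of the 97, 10 (10.3%) lay above and 23 (23.7%) below both controls in each KO library, against 15.8% and 16.3% of all genes. The CREB target list, drawn up with FOS and EGR1 known to differ, gave 4 of the 12 and 8 of the 23. The pooled shares therefore rest in part on genes known to differ in these libraries. FOS is among the 12 and the 23, and EGR1 is among the 23 only. The median log2 fold change of the 97 was 0.079, against 0.029 over all genes tested.

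**Figure D5:**
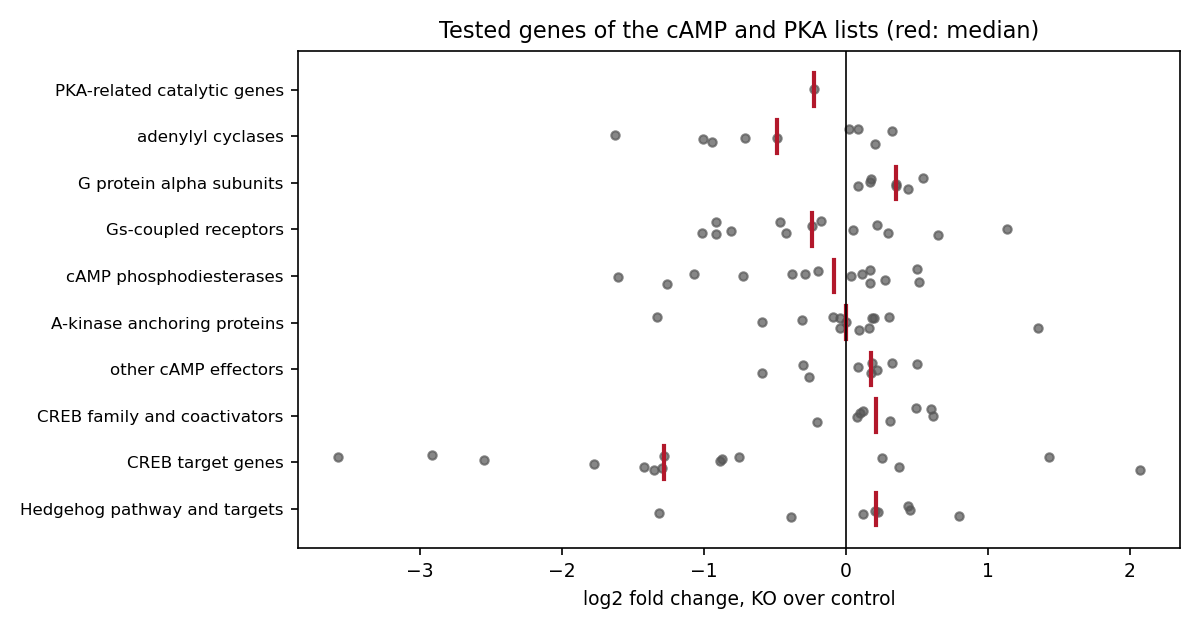
Log2 fold change of KO over control for the 97 tested genes of the 10 lists (points, spread vertically within a list for legibility) with each list's median (red line). Only the CREB target list, at -1.28, has a median beyond 0.5 in either direction, and no gene shown was called.

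Genes of cyclic AMP synthesis gave 0 edgeR calls with all libraries, where 0.0263% of all genes were called. Of 9 tested adenylyl cyclase genes, 1 (11.1%) was higher and 3 (33.3%) were lower in both KO libraries, against 15.8% and 16.3% of all genes. Of the 9, 0 were called, and the list's median log2 fold change was -0.49. ADCY2, with the most reads, had 59.3 and 49.3 CPM in KO against 96.8 and 112 CPM in control (log2 fold change -0.94, interval -1.56 to -0.33, edgeR adjusted p = 0.997). ADCY8 had 0.982 and 2.31 CPM in KO against 3.29 and 7.12 CPM in control. All 7 tested G protein alpha subunit genes overlapped between the groups, among them GNAS, which encodes the stimulatory subunit (792 and 565 CPM in KO against 651 and 547 CPM in control). GNAI2 and GNAI3, which encode inhibitory subunits, had log2 fold changes of 0.55 and 0.35.

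Of 13 tested receptor genes that act through the stimulatory G protein, 2 (15.4%) were higher and 3 (23.1%) lower in both KO libraries, close to the 15.8% and 16.3% of all genes (median -0.24). GPR3, a receptor active without a ligand, had 8.33 and 6.61 CPM in KO against 15.1 and 13.0 CPM in control. GPR161, a receptor of the cilium that restrains Hedgehog signalling, had 32 and 36.1 CPM in KO against 22.7 and 20.6 CPM in control. ADCYAP1R1, the receptor of the peptide PACAP and the one with the most reads, had 38.6 and 17.5 CPM in KO against 36.9 and 40.3 CPM in control. None of these differences passed the test (edgeR adjusted p = 0.997).

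Genes that break down cyclic AMP or anchor PKA also gave 0 edgeR calls with all libraries, where 0.0263% of all genes were called. Of 14 tested phosphodiesterase genes, 1 (7.14%) was higher and 3 (21.4%) lower in both KO libraries, against 15.8% and 16.3% of all genes (median -0.08). PDE4B had 19.7 and 10.2 CPM in KO against 33.0 and 38.3 CPM in control (log2 fold change -1.26, edgeR adjusted p = 0.997). It was called only without KO 1 (-1.79, adjusted p = 0.00108). PDE4D had 1.78 and 1.08 CPM in KO against 3.52 and 5.09 CPM in control, and PDE7A, with the most reads, had a log2 fold change of 0.17. Of 13 tested A-kinase anchoring protein genes, 1 (7.69%) was higher and 3 (23.1%) lower, against the same shares of all genes (median -0.00071). AKAP7, which anchors PKA at membranes, had 7.31 and 9.74 CPM in KO against 21.0 and 22.0 CPM in control. Its log2 fold change was -1.33 (interval -2.13 to -0.52, edgeR adjusted p = 0.997), and without KO 2 it was called at -1.55 (adjusted p = 0.0399). AKAP6 had 0.655 and 2.81 CPM in KO against 0.424 and 0.985 CPM in control, and was called without KO 1 (log2 fold change 2.01, adjusted p = 0.0392). AKAP12, a large scaffold, had 204 and 217 CPM in KO against 187 and 208 CPM in control.

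Of the remaining kinases and effectors, PRKX, a kinase related to the PKA catalytic subunits, had 123 and 125 CPM in KO against 135 and 155 CPM in control (log2 fold change -0.22, interval -0.80 to 0.36). PRKACG, a catalytic subunit gene active in testis, had 3 and 2 reads in KO against 0 and 0 in control and was not tested. All 9 tested genes of other cyclic AMP effectors overlapped between the groups. They include HCN4, a channel that binds cyclic AMP, with 45.7 and 33.3 CPM in KO against 24.0 and 45.8 CPM in control. HCN3 and POPDC2 had log2 fold changes of 0.50 and -0.59 at means near 1 CPM.

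Of the 8 CREB family and coactivator genes, 4 (50%) were higher and 0 lower in both KO libraries, against 15.8% and 16.3% of all genes (median 0.21). The coactivator CREBBP had 160 and 106 CPM in KO against 102 and 73.6 CPM in control (log2 fold change 0.60, interval -0.11 to 1.30). CRTC3, a coactivator that enters the nucleus when dephosphorylated, had 12.5 and 18.3 CPM in KO against 8.64 and 11.5 CPM in control. EP300 had a log2 fold change of 0.08. None was called (edgeR adjusted p = 0.997).

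Of 15 tested CREB target genes, 0 were higher and 8 (53.3%) lower in both KO libraries, against 15.8% and 16.3% of all genes, with a median of -1.28 and 0 called. The list is largely made of immediate early genes, and control 2 held the highest level of 10 of the 15. FOS and EGR1 were known to differ when the list was drawn up, so its counts support nothing beyond these libraries. EGR1 had 14.9 CPM in KO 1 and 76.0 CPM in KO 2, against 85.9 CPM in control 1 and 446 CPM in control 2. DUSP1, a phosphatase of MAP kinases, had 9.78 and 9.33 CPM in KO against 13.1 and 38.2 CPM in control. INHBA, the activin beta A gene, had 2.22 and 0.556 CPM in KO against 3.87 and 5.26 CPM in control. Summed over the list, the level was 95.2 and 291 CPM in KO against 200 and 843 CPM in control, so KO 2 stood above control 1. Without KO 1, DUSP1 (-1.44, adjusted p = 0.0199) and INHBA (-3.02, adjusted p = 0.00253) were called by edgeR as lower, and VGF and SCG2, which encode granin family proteins, as higher. VGF had 3.06 CPM in KO 1 and 93.2 CPM in KO 2, against 7.37 CPM in control 1 and 15.7 CPM in control 2, and without KO 2 it was called as lower, as was JUNB. EGR1 was called with the replicate number as a block (-2.54, adjusted p = 1.55e-06).

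Of 8 Hedgehog pathway genes, 1 (12.5%) was higher and 2 (25.0%) lower in both KO libraries, against 15.8% and 16.3% of all genes (median 0.22). SUFU, a restraint on GLI factors, had 25.4 and 40.1 CPM in KO against 16.6 and 21.1 CPM in control (log2 fold change 0.80, edgeR adjusted p = 0.997), and was called without KO 1 (1.10, adjusted p = 0.0481). SMO, the signal transducer, had 163 and 113 CPM in KO against 121 and 81.2 CPM in control. HHIP, a target gene of the pathway, had 0.218 and 0.175 CPM in KO against 0.504 and 0.478 CPM in control.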

How the data were processed

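Polyadenylated RNA of 4 H9 libraries was sequenced with a stranded mRNA kit, per the labels. The submitters' processing notes name HTSeq 0.11.0, STAR 2.6.0a, cutadapt 1.8.1, FastQC 0.11.7 and GRCh38. Annotation release and strand setting: not given in the sources used here. Each deposited file gives integer counts for Ensembl genes, with no scaling. Reads given to no gene (14.4% to 20.3% of the total) were left out.

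Symbols, positions and exon lengths came from GENCODE 29, which matched 93.8% of identifiers. Genes were kept with edgeR's filterByExpr (minimum count 10) and scaled by TMM, and KO was compared with control by edgeR 4.0.16's quasi-likelihood test (robust, two-sided, Benjamini-Hochberg over 19027 genes, R 4.3.3). Standard errors are the log2 fold change over the square root of F, and 95% intervals use the t distribution. The common dispersion gave a coefficient of variation of 36.3%, which limits what 2 libraries a group can show. Library pairs of a group differed far beyond sampling noise (chi-square per degree of freedom 124 in KO and 54.6 in control), so none was a copy.

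The members and lists were chosen with earlier results of these data known. Of each list the text names called genes, or else the 2 with the smallest p and the most abundant, and also all members, tested neighbours and the 5 genes most like PKIB. Genes that overlap a member are named too. PRKACG, FOS, FOSB, JUNB, VGF, SCG2, Z99129.4, SOX10 and the other named marker genes fall outside this rule and were named after their values were seen. Alternatives were RLE, upper-quartile and no factors, quantile normalisation with limma-trend and limma-voom (limma 3.58.1), DESeq2 1.42.0, the legacy quasi-likelihood fit, 2 other filters, a block for the replicate number, fits without 1 library, and other exon lengths for ratios.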

Additional observations from a re-analysis of the deposited data

How the results depend on the processing

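PKIB kept its direction in 14 alternative settings and lay furthest from 2.97 with library size only, at a log2 fold change of 2.85 (7.19-fold). The other 8 members had 0 calls in every setting with no library left out. Of these settings, limma-voom, upper-quartile factors, library size only and a mean CPM of at least 1 called 0 of all genes. Of the pathway genes, 3 (FOS, FOSB and EGR1) were called with the replicate number as a block (replicate block), where 0.399% of all genes were. Over the fits that leave out 1 library their number ran from 0 to 9, with 9 called without KO 1 (5.31% of all genes) and 3 without KO 2 (0.927% of all genes). Leaving out a library gave log2 differences of 0.55 to 0.78 for inhibitors to catalytic subunits, -0.29 to 0.077 for regulatory to catalytic and 0.16 to 0.28 for type I to type II. No label says that a replicate number marks a shared culture. Deviations of same-numbered libraries correlated at 0.326 over genes, and the block called 0 of the 8 members. Among the genes followed singly and not picked for their likeness to PKIB, the block changed only the call of EGR1, to called. EGR1 was known to differ when its list was drawn up.

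Of 46 genes followed singly through 14 settings (13 for HHIP and POPDC2, whose mean is under 1 CPM), 14 changed sign in at least 1. None of the values with a changed sign was called, and the cause was not tested. Upper-quartile factors gave -0.068 for PRKAR2B and -0.0073 for EP300. Library size only gave -0.096 for PRKAR2B, -0.040 for AKAP12 and -0.045 for EP300, and quantile normalisation gave -0.038, -0.025 and -0.054 for these 3. A mean CPM of at least 1 gave -0.030 for PRKAR2B. Over the fits without 1 library, members ran from -0.16 to 0.51 for PKIG, -0.20 to 1.41 for PRKAR1B and -0.37 to 0.52 for PRKAR2B. Pathway genes ran from -1.13 to 0.0022 for ADCYAP1R1, -0.092 to 2.05 for AKAP6, -0.11 to 0.26 for EP300, -0.072 to 0.41 for GNAS, -0.72 to 1.32 for HCN3, -0.20 to 0.72 for HCN4 and -1.97 to 0.20 for POPDC2. Neighbours ran from -0.063 to 0.80 for SERINC1, -1.41 to 0.042 for SMPDL3A and -3.0 to 2.64 for TRDN. The TRDN value without KO 2 rests on 5 reads in KO 1.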
